A study of Mus musculus with 46 samples.

Results

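Interferon response genes were described by name: 37 mouse genes that interferons are known to induce, or that carry the interferon signal, were looked up by symbol in the RNA tables of a castration study. Of these, 35 have values, out of 17242 genes in the 12-week table and 18531 in the 18-month table. Mx1 and Mx2 were not analysed here. By role, the 35 comprise 4 sensors of viral nucleic acid, 5 transcription factors and signalling proteins, 3 genes of the ISG15 system and a ubiquitin ligase that works with it, 11 antiviral effectors, 5 other interferon-induced genes, 5 interferon-induced GTPases and 2 chemokines. The mice were wild-type C57BL/6 animals in 3 arms, namely castrated males (casM, labelled Case at 18 months), sham-operated females (shamF) and sham-operated males (shamM), all operated on at 8 weeks of age. Kidney and liver were taken at 12 weeks or at 18 months. Each tissue has 6 castrated male libraries at 12 weeks and 5 at 18 months, and every sham group has 3, which makes 46 libraries in 12 groups. Castration therefore followed sexual maturation. The arms share genotype and age at surgery, while the operation was castration in casM and a sham operation in shamF and shamM. Which libraries came from the same animal was not used here.

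Interferons are secreted proteins that bind a receptor pair on the cell surface and act through JAK kinases and STAT proteins. Type I interferons mainly act through a complex that contains STAT2 and IRF9, which binds the interferon-stimulated response element (ISRE). Interferon gamma mainly acts through the gamma-activated site (GAS) and induces IRF1, guanylate-binding proteins, antigen presentation genes and the chemokines Cxcl9 and Cxcl10. Resident macrophages of the liver, the Kupffer cells, and lymphocytes are among the cells that make and answer these signals, and parenchymal cells of both organs answer them too.

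The authors deposited 1 mean per group, so the spread between libraries and the sequencing depth are unknown, and no test of the libraries could be computed here. Means are FPKM at 12 weeks, a unit scaled by transcript length, and an expression value with an unnamed unit at 18 months. Apart from marker sums, levels of different genes are therefore compared only at 12 weeks. Marker sums at 18 months add genes in the unnamed unit and are set only against the same sum in another group. A gene is said to have risen or fallen where the adjusted p-value in the authors' deposited table was under 0.05. Such p-values measure the spread between libraries, and the labels do not state that each library is a separate animal. The 12-week tables list each gene under 1 of the 3 comparisons only, by a rule that is not stated, so 12-week counts of genes that rose or fell are minimum counts and the listing may itself select genes. The labelled sex matched the Y-linked genes in both tissues and at both ages. Kidney segment markers summed to less than 1 in every liver group, and Alb was listed at 0 in 12-week liver although the other 7 hepatocyte markers were abundant there. Reads of near-identical relatives could have been divided differently by the authors' counting for the Oas1 group, Ifit3, the Gbp genes and the H2 genes.

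The sequence upstream of a member gene shows which of the 2 elements it carries, and 5 promoters are printed because their genes give the clearest patterns below. They are the 250 bases before the annotated start, from RefSeq on GRCm38.p6, all on the + strand, with motif matches in capitals. Ifit3 (chr19:34583279-34583528) and Gbp3 (chr3:142559794-142560043) carry ISRE matches, 2 each, which overlap in Gbp3. Igtp (chr11:58199306-58199555) carries a GAS match beside an ISRE match, and Irf1 (chr11:53769764-53770013) carries a GAS match. Trim25 (chr11:88999153-88999402) has neither and is shown because it fell in 18-month kidney, in castrated males and in sham females against sham males.
Ifit3: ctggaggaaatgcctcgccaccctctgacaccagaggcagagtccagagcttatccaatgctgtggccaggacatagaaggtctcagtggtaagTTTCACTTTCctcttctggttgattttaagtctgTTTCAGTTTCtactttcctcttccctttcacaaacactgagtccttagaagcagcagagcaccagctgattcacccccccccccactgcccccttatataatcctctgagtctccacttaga
Gbp3: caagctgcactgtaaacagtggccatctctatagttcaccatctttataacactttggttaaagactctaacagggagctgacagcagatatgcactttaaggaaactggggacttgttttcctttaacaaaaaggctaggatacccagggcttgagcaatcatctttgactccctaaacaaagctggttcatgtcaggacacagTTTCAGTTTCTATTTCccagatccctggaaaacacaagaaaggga
Igtp: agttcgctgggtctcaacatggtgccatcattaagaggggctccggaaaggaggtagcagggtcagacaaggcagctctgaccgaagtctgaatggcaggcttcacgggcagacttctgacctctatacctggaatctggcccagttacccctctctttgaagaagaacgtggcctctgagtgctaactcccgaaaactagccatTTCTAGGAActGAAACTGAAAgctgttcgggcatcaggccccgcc
Irf1: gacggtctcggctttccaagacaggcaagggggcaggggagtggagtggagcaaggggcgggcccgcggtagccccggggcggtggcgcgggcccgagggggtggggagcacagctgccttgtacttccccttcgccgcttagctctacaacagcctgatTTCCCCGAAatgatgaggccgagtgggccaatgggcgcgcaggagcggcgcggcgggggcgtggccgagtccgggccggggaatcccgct
Trim25: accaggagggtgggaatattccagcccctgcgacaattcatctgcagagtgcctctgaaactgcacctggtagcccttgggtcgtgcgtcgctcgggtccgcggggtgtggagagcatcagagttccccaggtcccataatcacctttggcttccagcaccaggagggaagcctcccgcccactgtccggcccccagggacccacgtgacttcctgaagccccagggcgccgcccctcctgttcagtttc

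The motifs searched on both strands were an ISRE core, spelled GAAA, any 2 bases and GAAA again (TTTC, any 2 bases and TTTC on the other strand), and the GAS, spelled TTCNNNGAA, which reads the same on both strands. Matches of the same or of the other motif may overlap. The RefSeq promoter table held 29 of the 35 members, and Dhx58, Zbp1, Usp18, Oas2, Ifi27 and Parp14 were not matched. An ISRE core lay in the window of 14 of the 29 members (48.3%), against 3.46% of 27025 genes with a window of the same length. A GAS lay in 8 of the 29 (27.6%), against 8.13% of all genes. Both occurred in Oas1a, Bst2, Gbp7 and Igtp. The 11 members with neither were Ifih1, Ddx58, Irf7, Irf9, Trim25, Oasl1, Oasl2, Ifi35, Ifi44, Xaf1 and Cxcl9. A match describes letters in this window and is not evidence of binding.

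**Figure D1:**
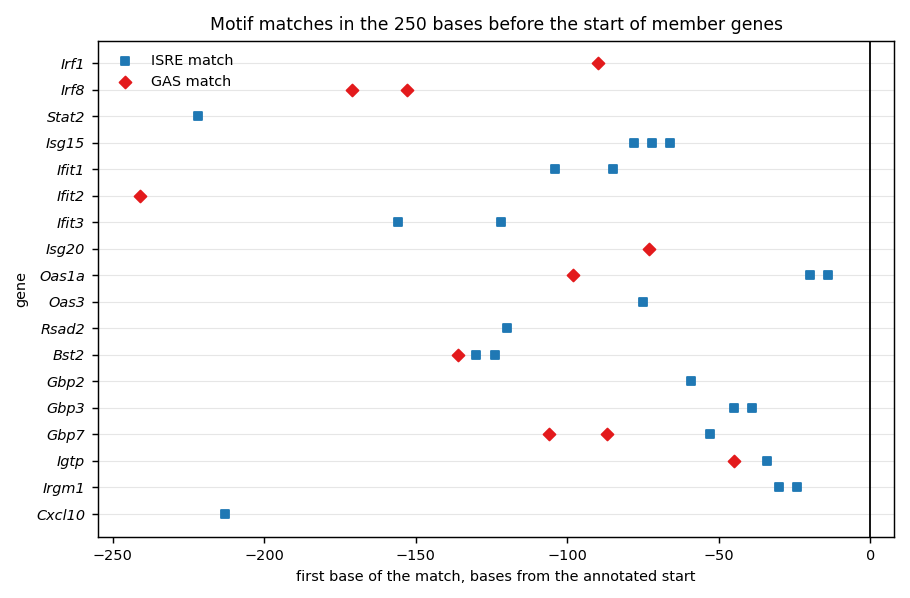
Positions of motif matches in the 250 bases before the start of 18 member genes with a match (y axis), as the distance in bases from the annotated start to the first base of the match (x axis). Squares are ISRE matches, found in 14 members, and diamonds are GAS matches, found in 8; Ifit3 has a pair of ISRE matches and Igtp has a GAS match beside its ISRE match.

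Several members sit in gene clusters. Ifit1, Ifit2 and Ifit3, whose proteins bind viral RNA or slow its translation, lie on chromosome 19. The guanylate-binding protein genes Gbp2, Gbp3 and Gbp7 lie on chromosome 3, and the oligoadenylate synthetase genes Oas1a, Oas2 and Oas3, with Oasl1 and Oasl2, lie on chromosome 5 together with Cxcl9 and Cxcl10.

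Sham males had the lowest mean of the 3 arms for most members in both tissues and at both ages. They were lowest for 32 of 35 members in 12-week kidney, 28 in 12-week liver, 28 in 18-month kidney and 24 in 18-month liver. Sham females had the highest mean for 30 members in 12-week liver and 28 in 18-month liver, whereas castrated males had the highest mean for 28 members in 18-month kidney. In 12-week kidney the top position was divided, with 13 members highest in castrated males and 20 in sham females. Exceptions with the highest mean in sham males were Trim25 and Oas3 in 12-week kidney, Trim25 in 18-month kidney, Bst2 and Ifi27 in 12-week liver, and Dhx58, Oasl1, Bst2 and Ifi27 in 18-month liver. These orders are of group means and carry no test, and the share of all genes with sham males lowest was not computed. Among all genes whose larger mean reached 1, 51.1% in castrated males and 49.2% in sham females were above sham males in 12-week kidney. In 12-week liver these shares were 47.5% in castrated males and 47.9% in sham females. They were 68.9% in castrated males and 67.7% in sham females in 18-month kidney. In 18-month liver they were 70.2% in castrated males and 71.7% in sham females. At 18 months the median gene of the whole table was itself higher than in sham males, by 0.13 in castrated males and 0.11 in sham females in kidney and by 0.12 in castrated males and 0.14 in sham females in liver on the log2(mean + 1) scale, so the 18-month orders carry that shift. By the log2 folds of the authors' deposited table, whose median over all genes lay between 0.00 and 0.05 here, 34 of 35 members in kidney and 18 in liver were higher in castrated than in sham males, and 25 in kidney and 28 in liver were higher in sham females than in sham males.

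Levels at 12 weeks ran from Oas3, with means under 1 FPKM in every group, to Ifi27 and Bst2. Ifi27, a small membrane protein of mitochondria and the nuclear envelope, had 91.8 FPKM in castrated males, 91.9 FPKM in sham females and 57.2 FPKM in sham males in kidney. Bst2, the tether that holds budding virus at the cell surface, had 192 FPKM in castrated male, 171 FPKM in sham female and 203 FPKM in sham male liver, while in kidney it had 21.1 FPKM in castrated males, 24.3 FPKM in sham females and 15.9 FPKM in sham males. In sham males 24 of the 35 members had a higher mean in liver than in kidney at 12 weeks and 18 at 18 months. In castrated males these counts were 23 and 17, and in sham females 25 and 26. The share of all genes with a higher mean in liver was not computed, so nothing follows from these counts. In sham males at 12 weeks Bst2 leaned furthest to liver, 12.8-fold, and Rsad2, the radical SAM enzyme viperin that makes a chain-terminating nucleotide, leaned furthest to kidney, 6.48-fold. At 18 months Cxcl9 leaned furthest to liver in sham females, 9.96-fold.

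**Figure D2:**
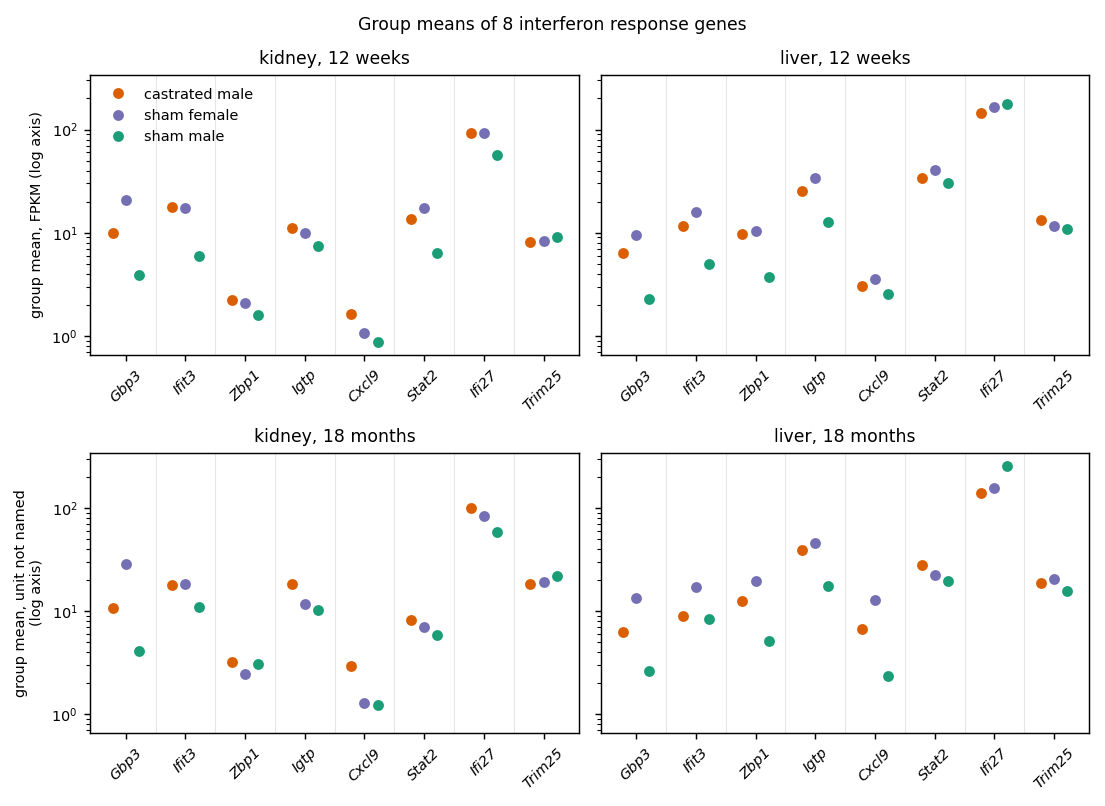
Group means of 8 members (x axis) on a log axis, in FPKM at 12 weeks (upper panels) and in the unnamed unit of the 18-month table (lower panels), for kidney (left) and liver (right). Each point is 1 group mean without an error bar, for castrated males, sham females and sham males from left to right; Gbp3 in kidney steps from sham female through castrated male to sham male, while Ifi27 is highest in sham males in liver.

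In kidney at 12 weeks, castrated males had a higher mean than sham males for 33 of 35 members, and the 5 members listed for this comparison all rose. They were Irf1, a transcription factor induced by interferon gamma, Oasl2 and Rsad2, both antiviral effectors, the vacuole-associated GTPase Igtp and the T cell attractant Cxcl9. Irf1 had 16.2 FPKM in castrated males and 9.05 FPKM in sham males, and Oasl2 had 11.8 FPKM in castrated males and 6.42 FPKM in sham males, each with an adjusted p of 0.000476 in the authors' deposited table. Rsad2 had 9.36 FPKM in castrated males against 6.77 FPKM in sham males (adjusted p = 0.00698 in the authors' deposited table). Igtp had 11 FPKM in castrated males against 7.36 FPKM in sham males, and Cxcl9 had 1.63 FPKM in castrated males against 0.875 FPKM in sham males, with adjusted p-values of 0.0344 and 0.0374 in the authors' deposited table. Among all genes listed for this comparison 22.6% rose and 26% fell. The median difference of log2(mean + 1) was 0.48 over the 34 members whose larger mean reached 1 and 0.01 over all such genes, of which 51.1% had a higher mean in castrated males.

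The largest rises in mean were in members listed under another comparison, so no test of castration is given for them. Ifit3 had 17.6 FPKM in castrated males against 6.0 FPKM in sham males, a difference of 1.41 on the log2(mean + 1) scale. Gbp3, a guanylate-binding protein, had 9.98 FPKM in castrated males against 3.89 FPKM in sham males, and Xaf1, a partner of the apoptosis inhibitor XIAP, had 18.5 FPKM in castrated males against 7.98 FPKM in sham males. Stat2, the signal transducer specific to type I and III interferons, had 13.4 FPKM in castrated males and 6.35 FPKM in sham males. The 2 members with a lower mean after castration were Trim25, a ubiquitin ligase that acts with the sensor RIG-I (8.1 FPKM in casM against 9.02 FPKM in shamM), and Oas3 (0.0988 FPKM in casM against 0.163 FPKM in shamM).

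At 18 months the kidney showed the same side for nearly every member but few that passed the test. The log2 fold in the authors' deposited table was above 0 for 34 of 35 members, 5 members rose and 1 fell, where 9.56% of all genes tested rose and 13.1% fell. The authors' log2 folds had a median of 0.37 over the members and of 0.04 over all genes tested, of which 53.9% were above 0. Without adjustment, 14 members had a p-value under 0.05 in the authors' deposited table, 13 of them higher after castration. The error given with a fold below is the standard error implied by the authors' fold and p-value.

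Gbp3 had the largest log2 fold in 18-month kidney, with a mean of 10.7 in castrated males and 4.09 in sham males (log2 fold 1.22 ± 0.21, adjusted p = 1.25e-07 in the authors' deposited table). Cxcl9 had 2.94 in castrated males and 1.23 in sham males (log2 fold 1.13 ± 0.41, adjusted p = 0.0303 in the authors' deposited table). Ifi27 had 98.8 in castrated males and 58.1 in sham males, a log2 fold of 0.62 ± 0.19 (adjusted p = 0.00895 in the authors' deposited table). These 3 genes cover a GTPase, a chemokine and a membrane protein rather than 1 role. Ifit3 had 18.1 in castrated males and 10.9 in sham males, and Stat2 had 8.16 in castrated males and 5.91 in sham males, with log2 folds of 0.58 ± 0.22 and 0.32 ± 0.11 and adjusted p-values of 0.0356 and 0.0201 in the authors' deposited table. Trim25 was the member that fell, with 18.4 in castrated males against 21.7 in sham males (log2 fold −0.39 ± 0.11, adjusted p = 0.00282 in the authors' deposited table). Gbp2 had 10.6 in castrated males against 4.86 in sham males, yet its log2 fold of 0.99 ± 0.43 missed the threshold (adjusted p = 0.0788 in the authors' deposited table). Irf9, the DNA-binding partner of Stat2, was close to it at 0.38 ± 0.15 (adjusted p = 0.0521 in the authors' deposited table).

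**Figure D3:**
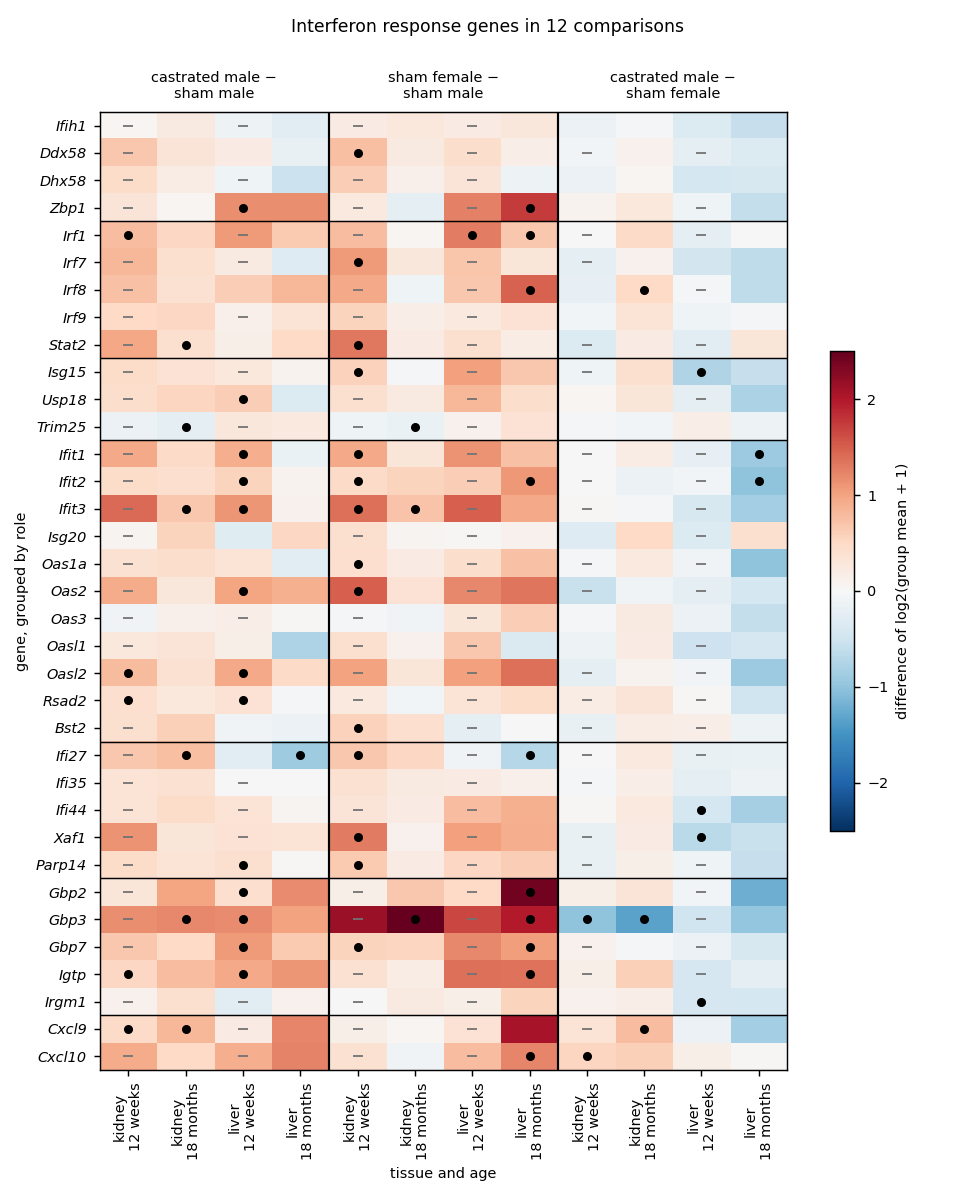
Difference of log2(group mean + 1) for the 35 members (rows, grouped by role) in 12 comparisons (columns, by tissue and age), red where the first-named arm is higher and blue where it is lower. Black dots mark an authors' adjusted p under 0.05 and short grey bars mark 12-week members that the authors list under another comparison; red fills most of the castration and sex columns, and blue fills the castrated male against sham female columns in liver.

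In kidney at 12 weeks, sham females had a higher mean than sham males for 32 of 35 members. Of all genes whose larger mean reached 1, 49.2% had a higher mean in sham females. Of 15 members listed for this comparison, 14 rose and none fell, where 41.8% of all listed genes rose and 39.7% fell. Stat2 had 17.4 FPKM in sham females and 6.35 FPKM in sham males, and Oas2, an oligoadenylate synthetase that activates RNase L, had 5.4 FPKM in sham females and 1.27 FPKM in sham males, each with an adjusted p of 0.000476 in the authors' deposited table. Ifit3 (17.3 FPKM in sham females against 6.0 FPKM in sham males), Ifit1 (3.69 FPKM in shamF against 1.44 FPKM in shamM), Xaf1 (21.0 FPKM in shamF against 7.98 FPKM in shamM), Gbp7 (3.81 FPKM in shamF against 2.28 FPKM in shamM) and the ADP-ribosyltransferase Parp14 (4.08 FPKM in shamF against 2.21 FPKM in shamM) had the same adjusted p in the authors' deposited table. Irf7, the factor that amplifies type I interferon production, had 21.3 FPKM in sham females and 9.72 FPKM in sham males (adjusted p = 0.023 in the authors' deposited table). Ddx58, which encodes the RNA sensor RIG-I, had 14.4 FPKM in sham females against 8.14 FPKM in sham males (adjusted p = 0.044 in the authors' deposited table). The other members that rose were Ifit2, Bst2, Ifi27, Oas1a and Isg15, a ubiquitin-like protein joined to other proteins, with adjusted p-values between 0.00127 and 0.0398 in the authors' deposited table. Ifi35 had 19.9 FPKM in sham females and 15.1 FPKM in sham males and missed the threshold (adjusted p = 0.0905 in the authors' deposited table). Over the 34 members whose larger mean reached 1 the median difference was 0.55 on the log2(mean + 1) scale, against −0.01 over all such genes.

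At 18 months few of these kidney differences between sham females and sham males passed the test. Gbp3 and Ifit3 rose and Trim25 fell, where 7.91% of all genes tested rose and 8.9% fell. Gbp3 had 28.4 in sham females and 4.09 in sham males (log2 fold 2.66 ± 0.22, adjusted p = 5.49e-31 in the authors' deposited table). Ifit3 had 18.4 in sham females and 10.9 in sham males (log2 fold 0.62 ± 0.19), and Trim25 had 19.2 in sham females and 21.7 in sham males (log2 fold −0.31 ± 0.09), both with an adjusted p of 0.00789 in the authors' deposited table. Stat2, which rose at 12 weeks, had 6.96 in sham females and 5.91 in sham males (log2 fold 0.11 ± 0.12, adjusted p = 0.725 in the authors' deposited table). The log2 fold was above 0 for 25 of 35 members, with a median of 0.12 against 0.00 over all genes tested. The difference between the ages was not tested, since they were processed separately.

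Set directly against sham females in kidney, castrated males had a higher mean for 13 members and a lower mean for 22 at 12 weeks. Among 15 members listed, Cxcl10, a chemokine of the same receptor as Cxcl9, rose with 8.43 FPKM in castrated males against 5.5 FPKM in sham females (adjusted p = 0.0382 in the authors' deposited table). Gbp3 fell, with 9.98 FPKM in castrated males against 20.9 FPKM in sham females (adjusted p = 0.000476 in the authors' deposited table). Of all listed genes 3.19% rose and 1.95% fell. The median difference over members was −0.05 on the log2(mean + 1) scale, against 0.01 over all genes. At 18 months Irf8, a transcription factor of macrophages and dendritic cells, rose with 12.4 in castrated males against 8.55 in sham females (log2 fold 0.53 ± 0.18, adjusted p = 0.0496 in the authors' deposited table). Cxcl9 also rose, with 2.94 in castrated males against 1.3 in sham females (log2 fold 1.19 ± 0.41, adjusted p just under the threshold in the authors' deposited table). Gbp3 fell again, with 10.7 in castrated males against 28.4 in sham females (log2 fold −1.43 ± 0.22, adjusted p = 7.52e-09 in the authors' deposited table). Of all genes tested at 18 months 2.73% rose and 4.41% fell, and 28 of 35 members had a log2 fold above 0.

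Gbp3 was the 1 member for which all 3 pairwise differences passed the authors' test in 18-month kidney. At 12 weeks it had 9.98 FPKM in castrated males, 20.9 FPKM in sham females and 3.89 FPKM in sham males, and at 18 months it had 10.7 in castrated males, 28.4 in sham females and 4.09 in sham males. The same order of means, with castrated males between sham females and sham males, held at both ages for Ifih1, Ifit2 and Oas2 as well, whose 3 differences at 18 months did not pass. Of its neighbours on chromosome 3, Gbp2 had 10.6 in castrated males, 8.32 in sham females and 4.86 in sham males at 18 months, and Gbp7 had 4.43 in castrated males, 4.56 in sham females and 2.85 in sham males. The difference between the genes was not tested.

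In liver at 12 weeks 13 of the 21 listed members rose after castration and none fell, where 12.1% of all listed genes rose and 12.8% fell. All 3 Ifit genes rose. Ifit3 had 11.7 FPKM in castrated males and 4.95 FPKM in sham males, Ifit1 had 4.19 FPKM in castrated males and 1.76 FPKM in sham males, and Ifit2 had 1.69 FPKM in castrated males and 0.832 FPKM in sham males, each with an adjusted p of 0.000856 in the authors' deposited table. Zbp1, a sensor of Z-form nucleic acid that can start necroptosis, had 9.63 FPKM in castrated males and 3.73 FPKM in sham males with the same adjusted p in the authors' deposited table. Among the GTPases, Gbp3 (6.4 FPKM in castrated males against 2.27 FPKM in sham males), Gbp7 (5.73 FPKM in casM against 2.22 FPKM in shamM) and Igtp (25.3 FPKM in casM against 12.6 FPKM in shamM) also had that adjusted p in the authors' deposited table. Gbp2 rose at a low level, with 1.52 FPKM in castrated males and 0.88 FPKM in sham males (adjusted p = 0.014 in the authors' deposited table).

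Oas2 (6.54 FPKM in castrated males against 2.82 FPKM in sham males) and Oasl2 (6.78 FPKM in casM against 3.04 FPKM in shamM) rose as well, with an adjusted p of 0.000856 in the authors' deposited table. Usp18, the protease that removes Isg15 and dampens type I interferon receptor signalling, had 9.22 FPKM in castrated males and 5.71 FPKM in sham males (adjusted p = 0.0304 in the authors' deposited table). Parp14 and Rsad2 completed the members that rose, with adjusted p-values of 0.00985 and 0.0369 in the authors' deposited table. Irf1 had a higher mean, with 34.7 FPKM in castrated males and 16.1 FPKM in sham males, but is listed under another comparison. Ifi27 and Bst2, the most abundant members, did not pass: Ifi27 had 146 FPKM in castrated males and 177 FPKM in sham males (adjusted p = 0.304 in the authors' deposited table), and Bst2 had 192 FPKM in castrated males and 203 FPKM in sham males (adjusted p = 0.855 in the authors' deposited table). The median difference was 0.35 on the log2(mean + 1) scale over the members and −0.02 over all genes.

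Immune cell markers moved with these members in 12-week liver. Macrophage and Kupffer cell markers, all 12 measured, summed to 146 FPKM in castrated males and 93.0 FPKM in sham males, and 3 of them rose (Csf1r, C1qa, C1qb). T cell markers, 10 of 12 measured, summed to 8.5 FPKM in castrated males and 2.85 FPKM in sham males, and 2 rose. The 8 NK cell markers summed to 5.59 FPKM in castrated males and 1.88 FPKM in sham males with 1 that rose, and the 7 conventional dendritic cell markers to 12.3 FPKM in castrated males and 5.02 FPKM in sham males with 4 that rose. B and plasma cell markers, 6 of 8 measured, summed to 19.96 FPKM in castrated males and 5.65 FPKM in sham males with 4 that rose. The 6 neutrophil markers summed to 9.93 FPKM in castrated males and 4.6 FPKM in sham males with 1 that rose (Ly6g listed at 0 in both arms), and the 8 endothelial markers to 42.1 FPKM in castrated males and 33.2 FPKM in sham males with 1 that rose. In bulk RNA, more cells of a type and more RNA per cell cannot be told apart. The part of these cells in the members' differences was not tested.

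In 18-month liver the castration folds of the members divided about evenly around 0. Ifi27 was the single member past the threshold, and it fell, where 1.08% of all genes tested rose and 1.01% fell. It had 139 in castrated males and 257 in sham males (log2 fold −1.04 ± 0.30, adjusted p = 0.0281 in the authors' deposited table). The log2 fold was above 0 for 18 members and below 0 for 17, with a median of 0.01 over the members and 0.05 over all genes tested, of which 54.8% were above 0. Among genes whose larger mean reached 1, as it did for 34 members, the median was −0.02 and 47.5% were above 0. Without adjustment, 12 members had a p-value under 0.05 in the authors' deposited table, 9 higher and 3 lower after castration.

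By role, folds were above 0 for 4 of 5 GTPases and 2 of 2 chemokines, and none of these passed. Gbp2 had 4.49 in castrated males and 1.43 in sham males (log2 fold 1.53 ± 0.58, adjusted p = 0.218 in the authors' deposited table). Cxcl10 had 6.03 in castrated males and 1.98 in sham males (log2 fold 1.51 ± 0.59, adjusted p = 0.264 in the authors' deposited table), and Cxcl9 had 6.75 in castrated males and 2.34 in sham males (log2 fold 1.41 ± 0.53, adjusted p = 0.223 in the authors' deposited table). Zbp1 came closest to the threshold, with 12.6 in castrated males and 5.07 in sham males (log2 fold 1.22 ± 0.39, adjusted p = 0.0768 in the authors' deposited table). Igtp had 38.8 in castrated males and 17.4 in sham males (log2 fold 1.0 ± 0.36, adjusted p = 0.177 in the authors' deposited table).

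Folds were below 0 for 3 of 4 sensors and for 6 of 11 antiviral effectors, and other than Ifi27 no member passed. Oas2, Oasl2 and Isg20 were among the effectors above 0, and Oas2 had 2.76 in castrated males and 1.02 in sham males (log2 fold 1.15 ± 0.63, adjusted p = 0.633 in the authors' deposited table). Oasl1, which in mouse restrains Irf7 translation, had 6.67 in castrated males and 12.1 in sham males (log2 fold −0.98 ± 0.45, adjusted p = 0.458 in the authors' deposited table). Dhx58, the regulator LGP2 of RNA sensing, had 4.6 in castrated males and 7.11 in sham males (log2 fold −0.80 ± 0.34, adjusted p = 0.368 in the authors' deposited table). Ifih1, which encodes the sensor MDA5, and Ddx58 stood at −0.51 ± 0.34 and −0.40 ± 0.27 in the authors' deposited table. Ifit3, which rose in 12-week liver, had 8.96 in castrated males and 8.31 in sham males at 18 months (log2 fold −0.06 ± 0.32, adjusted p = 0.983 in the authors' deposited table).

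**Figure D4:**
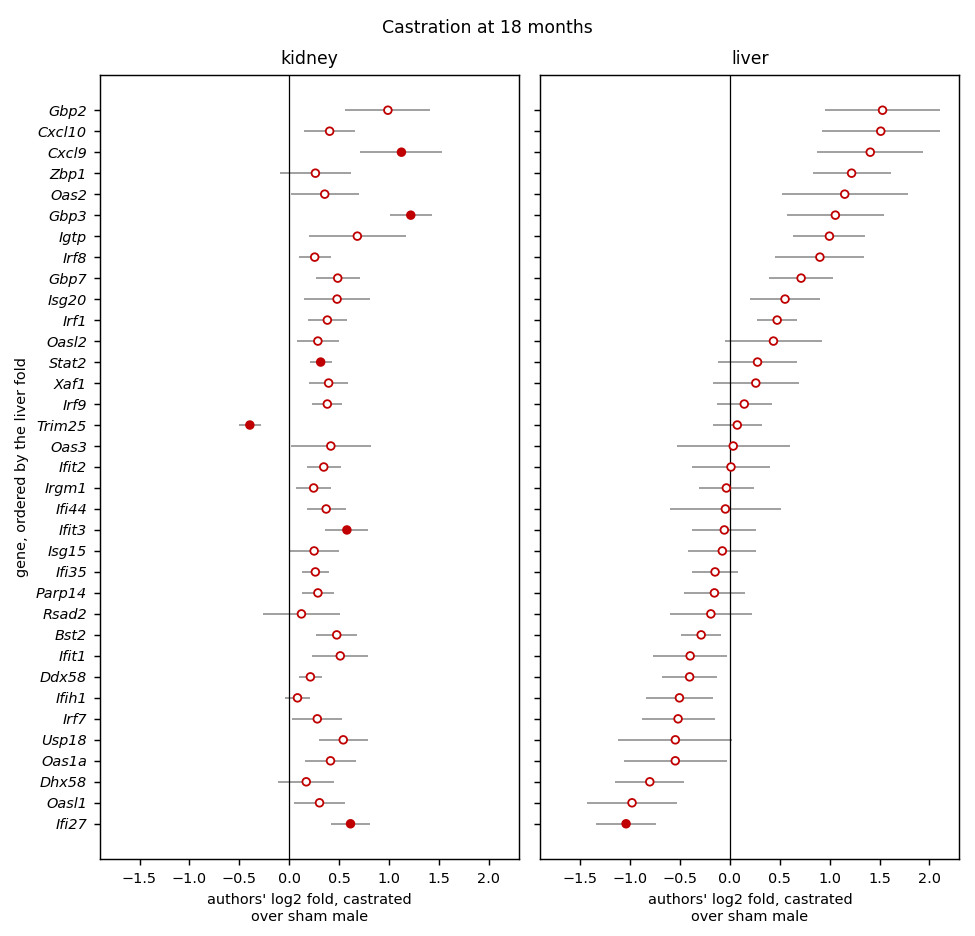
Authors' log2 fold of castrated over sham males at 18 months (x axis) for the 35 members in kidney (left) and liver (right), ordered by the liver fold; bars are the implied standard error and filled points have an authors' adjusted p under 0.05. In kidney 34 of 35 folds lie above 0, with Trim25 below, and in liver 18 lie above and 17 below 0, from Gbp2 at 1.53 to Ifi27 at −1.04.

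Ifi27 stood on opposite sides in the 2 organs at both ages. In kidney its mean was higher in castrated males (91.8 FPKM at 12 weeks and 98.8 at 18 months) than in sham males (57.2 FPKM and 58.1). In liver it was lower in castrated males (146 FPKM at 12 weeks and 139 at 18 months) than in sham males (177 FPKM and 257). The 18-month values passed the authors' test in each organ, while at 12 weeks the kidney value is listed under another comparison and the liver value did not pass. Bst2, Dhx58 and Ifih1 had the same order of means, higher in castrated than in sham males in kidney and lower in liver, at both ages. None of these passed the authors' test for castration at 18 months in either organ. The difference between the organs was not tested.

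The same marker sums were higher after castration in 18-month liver, and few single markers passed. Macrophage markers summed to 222 in casM and 147 in shamM with none of 12 past the threshold, T cell markers to 8.78 in casM and 2.15 in shamM with 2 of 10 that rose (Cd3g, Cd8a), and NK cell markers to 5.03 in casM and 1.48 in shamM with none of 8. B and plasma cell markers summed to 28.8 in casM and 9.14 in shamM, conventional dendritic cell markers to 7.52 in casM and 3.36 in shamM, neutrophil markers to 34.4 in casM and 12.7 in shamM (Ly6g listed at 0 in shamM) and endothelial markers to 35.7 in casM and 30.9 in shamM, with none past the threshold. In 18-month kidney the T cell sum was 19.2 in casM and 11.2 in shamM with none that rose. The macrophage sum there was 256 in casM and 186 in shamM, while 1 marker, Csf1r, fell (Clec4f listed at 0 in shamM), and the endothelial sum was 280 in casM and 202 in shamM with 3 of 8 that rose. The remaining 18-month kidney sums were 7.76 in casM and 4.99 in shamM for NK cells, 65.3 in casM and 64.6 in shamM for B and plasma cells, 18.7 in casM and 13.1 in shamM for conventional dendritic cells with 2 of 7 that rose, and 6.97 in casM and 8.73 in shamM for neutrophils (Ly6g listed at 0 in both, and Mmp8 in shamM). In 12-week kidney the sums were 70.7 FPKM in casM and 66.4 FPKM in shamM for macrophages with 2 of 12 that rose (Clec4f and Marco listed at 0 in both), 9.59 FPKM in casM and 6.12 FPKM in shamM for T cells, and 28.9 FPKM in casM and 9.47 FPKM in shamM for B and plasma cells with 2 of 6 that rose. Also in 12-week kidney, endothelial markers summed to 177 FPKM in casM and 142 FPKM in shamM with 2 of 8 that rose (Tek, Eng), and conventional dendritic cell markers to 12.8 FPKM in casM and 10.6 FPKM in shamM, where Zbtb46 rose and Cd209a fell. NK cell markers there summed to 4.17 FPKM in casM and 2.55 FPKM in shamM and neutrophil markers to 4.49 FPKM in casM (Ly6g listed at 0) and 4.04 FPKM in shamM (Retnlg listed at 0). Of the NK cell and neutrophil markers only Ncr1, S100a8 and S100a9 have a test of castration there, and none of them passed. The 7 blood markers, mainly haemoglobin genes, summed to 5266 in casM and 3474 in shamM in 18-month kidney, and 4 rose (Hbb-bs, Hba-a2, Hba-a1, Slc4a1). In 18-month liver they summed to 1477 in casM and 986 in shamM, and Alas2 fell. At 12 weeks the blood sum was 295 FPKM in casM and 329 FPKM in shamM in kidney and 105 FPKM in casM and 174 FPKM in shamM in liver, with 2 markers that fell in each. Of the 8 hepatocyte markers in 18-month kidney, Apob rose, Ttr fell (log2 fold −1.01 ± 0.19 from the authors' deposited table), and Alb had 65.1 in casM and 21.7 in shamM without passing (adjusted p = 0.242 in the authors' deposited table). For plasmacytoid dendritic cells the 6 markers summed to 13.1 in casM and 1.7 in shamM in 18-month liver. In the unnamed unit, nearly all of that sum was 1 gene, Ly6d. Ly6d rose, with 12.5 in casM and 1.48 in shamM (adjusted p = 9.18e-06 in the authors' deposited table). Siglech had 0.194 in casM and 0.0933 in shamM and did not pass. No kidney sum is given since Klk1 on that list is an abundant kidney transcript. The part of these markers in the members' differences was not tested.

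Sham females had higher means than sham males for 33 of 35 members in 12-week liver, with a median difference of 0.64 against −0.02 over all genes on the log2(mean + 1) scale. A single member, Irf1, is listed for this comparison in the authors' deposited table, and it rose, with 40.6 FPKM in sham females and 16.1 FPKM in sham males (adjusted p = 0.000856). All 628 genes listed there had passed, 47.1% of them higher and 52.9% lower in females, so nothing follows from the call itself. The largest differences without a listed test were Gbp3 with 9.44 FPKM in sham females and 2.27 FPKM in sham males, Ifit3 with 15.8 FPKM in sham females and 4.95 FPKM in sham males, and Igtp with 34.2 FPKM in sham females and 12.6 FPKM in sham males.

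In 18-month liver 9 members rose and 1 fell in sham females against sham males, where 5.87% of all genes tested rose and 3.91% fell. By role, 4 of the 5 GTPases rose, as did Irf1, Irf8, Cxcl10, Zbp1 and Ifit2, 1 of 11 antiviral effectors. Gbp2 had 11.8 in sham females and 1.43 in sham males (log2 fold 2.81 ± 0.54, adjusted p = 1.48e-05 in the authors' deposited table). Gbp3 had 13.3 in sham females and 2.62 in sham males (log2 fold 2.12 ± 0.44, adjusted p = 7.11e-05 in the authors' deposited table). Zbp1 had 19.4 in sham females and 5.07 in sham males (log2 fold 1.75 ± 0.42, adjusted p = 0.00124 in the authors' deposited table). Irf8 had 6.89 in sham females and 1.86 in sham males (log2 fold 1.65 ± 0.43, adjusted p = 0.00317 in the authors' deposited table). The median log2 fold was 0.49 over the 35 members and 0.01 over all genes tested.

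Irf1 (24.4 in shamF against 15.0 in shamM), Igtp (46.1 in shamF against 17.4 in shamM), Gbp7 (5.53 in shamF against 2.15 in shamM), Ifit2 (3.01 in shamF against 0.88 in shamM) and Cxcl10 (5.93 in shamF against 1.98 in shamM) also rose, with adjusted p-values between 0.00556 and 0.0464 in the authors' deposited table. Ifi27 fell, with 156 in sham females and 257 in sham males (log2 fold −0.93 ± 0.32, adjusted p = 0.0426 in the authors' deposited table). Cxcl9 had 12.9 in sham females and 2.34 in sham males but missed the threshold (log2 fold 2.19 ± 0.88, adjusted p = 0.0961 in the authors' deposited table). Bst2 had 236 in sham females and 237 in sham males (log2 fold −0.24 ± 0.24, adjusted p = 0.68 in the authors' deposited table).

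Macrophage markers in 18-month liver summed to 641 in sham females and 147 in sham males, and 5 of 12 rose (C1qa, C1qb, Cd68, Clec4f, Vsig4). NK cell markers summed to 12.2 in shamF and 1.48 in shamM with 4 of 8 that rose, T cell markers to 11.2 in shamF and 2.15 in shamM with 3 of 10, endothelial markers to 60.5 in shamF and 30.9 in shamM with 4 of 8, and conventional dendritic cell markers to 12.4 in shamF and 3.36 in shamM with 2 of 7. B and plasma cell markers summed to 22.5 in shamF and 9.14 in shamM and neutrophil markers to 27.8 in shamF and 12.7 in shamM (Ly6g listed at 0 in both), with none past the threshold. At 12 weeks the macrophage sum was 271 FPKM in sham female and 93.0 FPKM in sham male liver. In kidney it was 99.3 FPKM in sham females and 66.4 FPKM in sham males at 12 weeks, and 202 in sham females and 186 in sham males at 18 months, where Csf1r rose. The 12-week kidney sums were also 11.6 FPKM in shamF and 6.12 FPKM in shamM for T cells and 39.9 FPKM in shamF and 9.47 FPKM in shamM for B and plasma cells, with 1 marker that rose in each. In 18-month kidney the following sums were lower in shamF than in shamM, given in that order. They were 9.13 and 11.2 for T cells and 4.52 and 4.99 for NK cells. B and plasma cell sums were 56.8 and 64.6, conventional dendritic cell sums 12.7 and 13.1, and neutrophil sums 7.02 and 8.73. Ly6g and Mmp8 were listed at 0 in shamM. Of these markers only Cd209a passed, and it fell. The endothelial sum there was 245 in shamF and 202 in shamM, with none past the threshold. The part of these cells in the sex difference of the members was not tested.

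Castrated male livers had lower means than sham female livers for most members. At 12 weeks 31 of 35 means were lower in castrated males and 4 of 13 listed members fell, where 1.77% of all listed genes rose and 2.94% fell. Isg15 had 22 FPKM in castrated males and 37.9 FPKM in sham females (adjusted p = 0.000856 in the authors' deposited table). Xaf1 had 15.8 FPKM in castrated males and 25.8 FPKM in sham females, Ifi44 had 2.05 FPKM in castrated males and 3.16 FPKM in sham females, and the autophagy-linked GTPase Irgm1 had 18.0 FPKM in castrated males and 24.3 FPKM in sham females, with adjusted p-values of 0.0208, 0.0239 and 0.031 in the authors' deposited table. The median difference was −0.22 over the members, against 0.00 over all genes, on the log2(mean + 1) scale. At 18 months the log2 fold was below 0 for 30 of 35 members, with a median of −0.52 against 0.00 over all genes tested. Ifit1 and Ifit2 fell, where 0.53% of all genes rose and 0.595% fell. Ifit1 had 2.39 in castrated males and 5.34 in sham females (log2 fold −1.08 ± 0.31, adjusted p = 0.0478 in the authors' deposited table), and Ifit2 had 1.0 in castrated males and 3.01 in sham females (log2 fold −1.52 ± 0.44, adjusted p = 0.0468 in the authors' deposited table). All 10 members with an unadjusted p under 0.05 in the authors' deposited table were lower in castrated males. Irf1 had 24.2 in castrated males and 24.4 in sham females (log2 fold 0.01 ± 0.19 from the authors' deposited table). Macrophage markers summed to 146 FPKM in castrated males and 271 FPKM in sham females at 12 weeks, where 7 of 12 fell, and to 222 in castrated males and 641 in sham females at 18 months, where none passed. At 18 months NK cell markers summed to 5.03 in castrated males and 12.2 in sham females and endothelial markers to 35.7 in castrated males and 60.5 in sham females, with none past the threshold. T cell markers summed to 8.5 FPKM in castrated males and 7.5 FPKM in sham females at 12 weeks and to 8.78 in castrated males and 11.2 in sham females at 18 months, with none past the threshold. B and plasma cell sums were 19.96 FPKM in casM and 12.9 FPKM in shamF at 12 weeks, where Cd79a rose. At 18 months they were 28.8 in casM and 22.5 in shamF. Conventional dendritic cell sums were 12.3 FPKM in casM and 9.8 FPKM in shamF at 12 weeks. They were 7.52 in casM and 12.4 in shamF at 18 months. Neutrophil sums were 9.93 FPKM in casM and 11.3 FPKM in shamF at 12 weeks. They were 34.4 in casM and 27.8 in shamF at 18 months (Ly6g listed at 0 in shamF). The part of these markers in the difference was not tested.

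**Figure D5:**
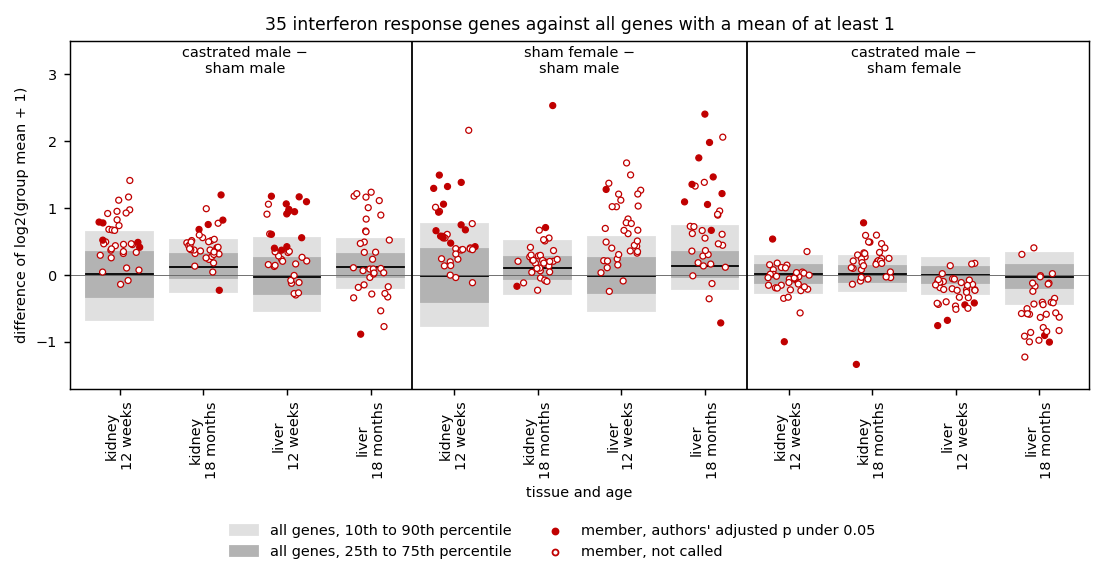
Difference of log2(group mean + 1) for the 35 members (points) in 12 comparisons (x axis, by tissue and age), with grey bands for the 10th to 90th and 25th to 75th percentiles and a line for the median of all genes whose larger mean reached 1. Filled points have an authors' adjusted p under 0.05; above the 90th percentile of genes lie 14 members in 12-week and 9 in 18-month kidney after castration, and 10 lie above it and 7 below the 10th percentile in 18-month liver after castration.

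Castration and the sex comparison share the sham male libraries, so their values are given side by side and not correlated. The rest of the pathway was described by lists of related genes. The 5 interferon genes with values (Ifnb1, Ifnab, Ifnk, Ifnz and Ifng) were near 0 in every group, and none passed a test. Ifng, the gene of interferon gamma, had at most 0.208, in castrated male kidney at 18 months. Among the receptor and kinase genes, the type I receptor chain Ifnar2 rose with castration in 18-month kidney, with 40.3 in castrated males and 25.8 in sham males (log2 fold 0.43 ± 0.13, adjusted p = 0.00494 in the authors' deposited table). Il10rb, a receptor chain for type III interferon and interleukin 10, also rose there, with 44.6 in castrated males and 29.8 in sham males (log2 fold 0.43 ± 0.08, adjusted p = 6.3e-06 in the authors' deposited table), and Jak1 fell, with 30.4 in castrated males and 32.7 in sham males (log2 fold −0.27 ± 0.09, adjusted p = 0.0228 in the authors' deposited table). No receptor or kinase gene passed for castration in the other 3 tissue and age settings.

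Of 54 further interferon-induced genes with values, 20 were listed for castration in 12-week kidney, where 11 rose and 1 fell beside 22.6% and 26% of all listed genes. In 12-week liver 34 were listed, and 23 rose and none fell beside 12.1% and 12.8%. Summed over the 54 genes, the level in 12-week liver was lower in casM, with 1301 FPKM in casM and 1397 FPKM in shamM. In 12-week kidney it was 605 FPKM in casM and 445 FPKM in shamM. In 18-month kidney 5 rose and 2 fell beside 9.56% and 13.1% of all genes tested, so these counts are no higher than those of genes in general. In 18-month liver 1 rose beside 1.08%. This gene was Ccl5, a T cell and monocyte attractant, with 13.1 in castrated males and 2.65 in sham males (log2 fold 2.12 ± 0.62, adjusted p = 0.0307 in the authors' deposited table). Ccl5 had risen in 12-week liver too, with 6.36 FPKM in castrated males and 1.41 FPKM in sham males (adjusted p = 0.000856 in the authors' deposited table). In 12-week kidney the virus-restricting membrane protein Ifitm1 rose, with 16.0 FPKM in castrated males and 4.93 FPKM in sham males (adjusted p = 0.000476 in the authors' deposited table). For sham females against sham males, all 19 that were listed rose in 12-week kidney, beside 41.8% of all listed genes. In 12-week liver 7 were listed and rose, where every listed gene had passed. At 18 months 3 of the 54 rose in kidney, beside 7.91% of all genes tested, and 13 rose in liver, beside 5.87%, and none fell in either.

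Antigen presentation is a process that interferon gamma induces. Of 18 genes for it, 10 rose and none fell with castration in 18-month kidney, beside 9.56% and 13.1% of all genes tested. B2m, the light chain of class I molecules, had 934 in castrated males and 500 in sham males (log2 fold 0.76 ± 0.19, adjusted p = 0.000567 in the authors' deposited table), and Cd74, the class II invariant chain, had 594 in castrated males and 357 in sham males (log2 fold 0.59 ± 0.18, adjusted p = 0.00628 in the authors' deposited table). In 18-month liver H2-Ab1 rose with castration, with 53.6 in castrated males and 17.9 in sham males (log2 fold 1.36 ± 0.41, adjusted p = 0.047 in the authors' deposited table), where 1.08% of all genes tested rose. In that tissue 8 of the 18 rose in sham females against sham males, beside 5.87% of all genes tested. At 12 weeks 4 of 9 listed genes rose with castration in kidney, beside 22.6% of all listed genes, and 7 of 12 in liver, beside 12.1%. The 18 genes summed to 1535 FPKM in casM and 1185 FPKM in shamM in 12-week kidney. In 12-week liver the sum was lower in casM, with 4382 FPKM in casM and 4529 FPKM in shamM.

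Few regulators of the pathway passed. Cish, a cytokine-induced brake on JAK and STAT signalling, rose with castration in 18-month kidney, with 12.9 in castrated males and 5.68 in sham males (log2 fold 1.05 ± 0.26, adjusted p = 0.000587 in the authors' deposited table). Socs3, another brake of this family, rose with castration in 18-month liver, with 4.21 in castrated males and 1.72 in sham males (log2 fold 1.11 ± 0.33, adjusted p = 0.0365 in the authors' deposited table). Rnaseh2b, a subunit of the nuclease that removes ribonucleotides from DNA, fell with castration in kidney at both ages, with 9.36 FPKM in castrated males and 26.9 FPKM in sham males at 12 weeks (adjusted p = 0.000476 in the authors' deposited table). At 18 months it had 13.9 in castrated males and 21.3 in sham males (log2 fold −0.76 ± 0.14, adjusted p = 6.21e-07 in the authors' deposited table). In total, 1 of 10 negative regulators rose and 1 fell, and 1 of 19 sensing genes rose and 1 fell, with castration in 18-month kidney. Of all genes tested there 9.56% rose and 13.1% fell, and counts of 1 gene each way are too small to set against those shares.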

How the data were processed

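RNA libraries of kidney and liver were sequenced as paired reads of 150 bp. HISAT2, SAMtools and Cufflinks with build mm10 are named, per the submitters' processing notes, without versions. The authors deposited FPKM group means at 12 weeks and a normalized expression signal of unnamed unit at 18 months. From the values, 0.01 had been added to the means, and less it the deposited 12-week folds matched the means within 0.001 on the log2 scale for 99.9% of genes in kidney and 99.8% in liver. Per the file headers, the 12-week tables hold the authors' test statistic (score), p-value and adjusted p-value in the layout of Cuffdiff, the smallest p being 5e-05, and the authors deposited log2 folds, p-values and adjusted p-values from DESeq2 at 18 months. Those folds run the second-named over the first-named group and were turned to match the means.

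With means only, the planned tests of libraries gave way to the authors' own. A gene was called at an adjusted p under 0.05. Differences are of log2(mean + 1), which understates the change of low genes. The implied standard error is the size of the fold over the normal quantile that its p-value gives, a step tested on simulated data. At 18 months the log2 mean + 1 difference of all genes had medians between −0.03 and 0.14, so directions there follow the authors' folds. Python 3.11.15, pandas 2.3.3 and scipy 1.17.1 were used. Members and lists were chosen with earlier results of these data known. Members are named where called or among the 3 largest differences each way per comparison, and at most 4 called genes per list. The metabolite tables were not used here.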

Additional observations from a re-analysis of the deposited data

How the results depend on the processing

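Of 66 summary values recomputed under another setting, 55 stayed within 1.5 times the count or close to the median and 11 moved, and no difference of a called member changed sign. At an adjusted p under 0.01 the members called fell to 3 instead of 5 for castration in 12-week kidney, 1 instead of 2 for castrated males against sham females in 12-week kidney and 1 instead of 4 in 12-week liver. At 18 months the same setting gave 3 instead of 6 for castration and 1 instead of 3 for castrated males against sham females in kidney, and in liver 0 instead of 1 and 0 instead of 2. Of 64 single calls, 24 were lost at 0.01, where the stricter limit itself is the cause. For 18-month kidney, sham females against sham males, the median difference of 0.21 became 0.097 when centred on all genes and 0.12 with the authors' log2 folds. For castration in 18-month liver, 0.10 became −0.020 when centred and −0.013 with the authors' folds, an alternative chosen after seeing the data. The pseudocount and the filter on low means kept the remaining values.

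No paired analysis was possible because the values are group means, and for the same reason leaving out each library in turn was not run. Depth is unknown, so low members such as Oas3 and the interferon genes carry no stated precision. The 12-week listing of 1 comparison per gene limits every count at that age.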
